A study of Danio rerio with 12 samples.

Results

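The genes described here are 10 genes of red blood cell formation in the adult zebrafish kidney, chosen by function and matched by zebrafish symbol to Entrez gene IDs. They are 10 of the 30238 genes in the count tables, and all 10 passed the filter on low counts. Of the 10, 3 encode enzymes of heme synthesis (alas2, urod and fech), 2 supply iron (tfr1a and slc25a37), 2 are erythroid transcription factors (gata1a and klf1) and 3 build the red cell membrane (slc4a1a, epb41b and sptb). Levels were measured by sequencing total RNA of whole kidneys, in 3 wild-type samples and 9 samples labelled as pdx1 heterozygous knockout (ko). The homeobox gene pdx1 is known for its role in the pancreas. Each sample is called a kidney below. All fish were adult, and the labels give neither the allele, the sex, the family nor the number of fish behind a sample. The p-values below therefore measure the spread between these samples, which may be technical in part.

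In fish the kidney is the main site of adult blood formation, so nephrons and developing red cells lie side by side in the same organ. Heme is made from glycine and succinyl-CoA along a chain of enzymes that starts and ends in the mitochondrion, and each developing red cell takes up transferrin-bound iron for the last step. The transcription factors GATA1 and KLF1 are known to activate globin, heme enzyme and membrane genes together in vertebrate red cell precursors. Loss of many of these genes was found in zebrafish screens for pale or fragile blood, and the mutants carry names such as sauternes (alas2), frascati (slc25a37), chianti (tfr1a), riesling (sptb), retsina (slc4a1a) and vlad tepes (gata1a).

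The mutated gene itself was near the limit of detection: pdx1 was listed at estimated counts of 14, 10 and 5.6 in the wild-type libraries, and in the heterozygous libraries at 0 in 5 of 9 and at most at 10.4, so it gives only a weak check of the labels. Estimated counts, in units of 1e+06, summed to between 17.19 and 17.95 in the wild-type and between 16.04 and 19.48 in the heterozygous libraries. The lowest estimated count of any of the 10 genes in any library was 273, so counting error was small beside the differences between kidneys. No pair of libraries agreed within sampling noise (lowest chi-square per gene 17.3). A ribosomal RNA gene, used as the measure here, took 5.11% ± 0.874 (SD, n = 3) of the counts in wild-type and 7.72% ± 1.05 (SD, n = 9) in heterozygous libraries, without overlap. A fit that includes this gene is given below, but it cannot cleanly separate the gene from genotype, because the shares do not overlap. Its part in the genotype values was not tested further. Markers of red cells were present in all libraries: the adult alpha globin gene hbaa1 ranged from 3538 to 29952 TPM and the red cell carbonic anhydrase gene cahz from 61.7 to 758 TPM. TPM, a unit of transcript abundance deposited by the authors, is scaled for transcript length and library size and is the scale used for levels below.

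The enzyme genes differed in how widely they ranged. The first and rate-limiting enzyme of red cell heme synthesis is encoded by alas2, which stood at 160.0, 19.0 and 65.4 TPM in wild-type replicates 1, 2 and 3. In the 9 heterozygous kidneys alas2 was 16.7 TPM at the lowest, 64.2 at the median and 99.4 at the highest. The kidney with the most alas2 thus held 9.60 times the level of the kidney with the least, the widest range of the 10 genes, and both genotypes held kidneys near the bottom of it. For urod, whose product converts uroporphyrinogen to coproporphyrinogen, wild-type levels were 175, 70.1 and 142 TPM. Heterozygous levels of urod ran from 54.5 through a median of 104 to 192 TPM. Ferrochelatase, encoded by fech, inserts iron into the porphyrin ring, and fech stood at 111, 43.9 and 88.4 TPM in the wild-type samples. In heterozygous samples fech had a lowest level of 44.0, a median of 69.1 and a highest of 103 TPM. Its 2.54-fold range was the narrowest of the 10, and for all 3 enzymes the groups overlapped, with wild-type replicate 2 and heterozygous replicates 2 and 3 at the low end.

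The iron supply genes had the same kidneys near their extremes, though not the same order throughout. The transferrin receptor gene tfr1a, through which red cell precursors import iron, had 285, 76.7 and 195 TPM in wild-type replicates 1 to 3. Heterozygous kidneys had 77.3 TPM of tfr1a at the lowest, 133 at the median and 246 at the highest. Mitoferrin 1, encoded by slc25a37, carries iron into the mitochondrion, and its wild-type levels were 78.4, 19.1 and 46.5 TPM. Heterozygous levels of slc25a37 were 26.1, 32.3 and 58.6 TPM as lowest, median and highest. In both genes wild-type replicate 1 was the highest and wild-type replicate 2 the lowest of all 12 samples, so the wild-type samples enclosed every heterozygous one.

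The transcription factor genes were the least abundant. For klf1, the red cell member of the Krüppel-like factors, wild-type samples had 44.2, 17.1 and 35.6 TPM and heterozygous samples a lowest of 16.5, a median of 29.955 and a highest of 42.1 TPM. For gata1a, wild-type samples had 26.7, 13.5 and 42.6 TPM, and heterozygous samples 16.9, 19.3 and 42.6 TPM in the same order. While klf1 was highest in wild-type replicate 1 like most of the genes, gata1a was highest in wild-type replicate 3 and only 26.7 TPM in replicate 1.

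Membrane genes held both the most abundant member and, by Pearson r between genes, the closest pair. The anion exchanger gene slc4a1a, which encodes band 3, had 495, 105 and 312 TPM in the wild-type samples. Its heterozygous levels were 102 TPM at the lowest, 307 at the median and 453 at the highest. Spectrin beta (sptb) forms the lattice under the red cell membrane and protein 4.1 (epb41b) ties that lattice to the membrane. Wild-type levels were 119, 34.0 and 102 TPM for sptb and 177, 47.9 and 127 TPM for epb41b. Across heterozygous kidneys sptb ran from 32.2 through 62.4 to 104 TPM, and epb41b from 46.1 through 93.1 to 151 TPM. As with the enzymes, the groups overlapped in all 3 genes, and the low kidneys were the same ones.

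**Figure D1:**
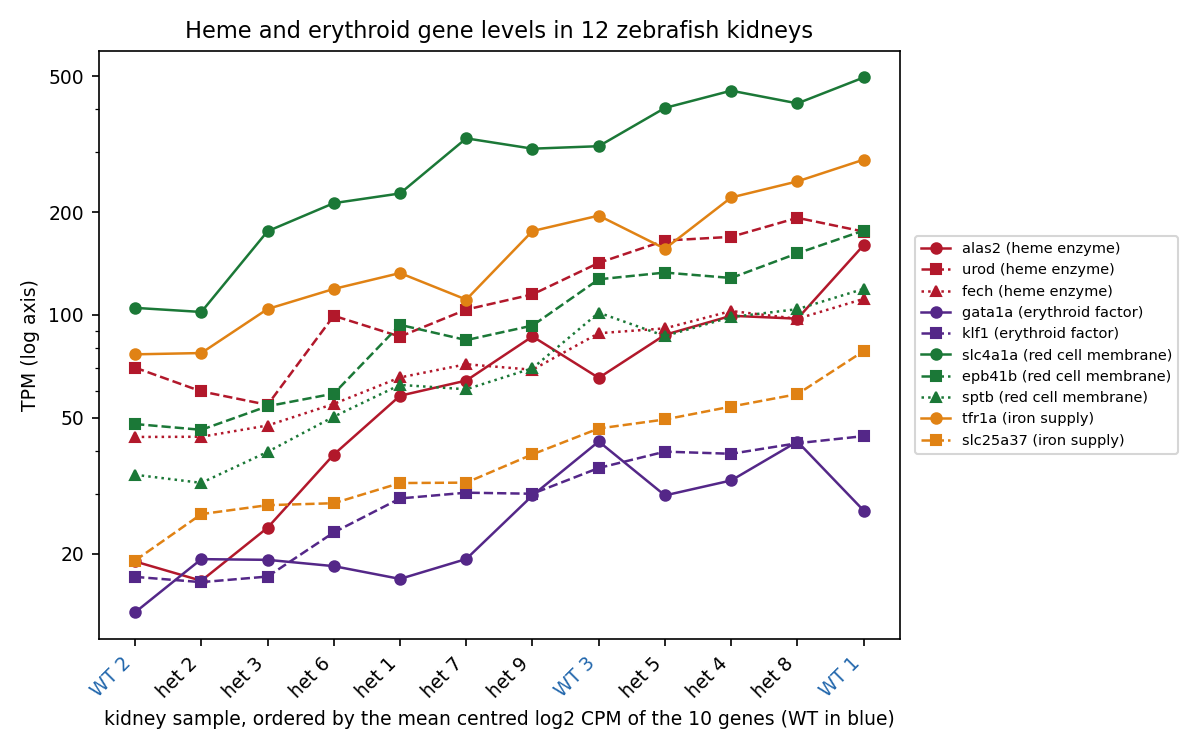
TPM (log axis) of the 10 genes in each kidney, ordered from left to right by the mean centred log2 CPM of the 10 genes; colours give the role of each gene and wild-type samples are named in blue. Levels climb from wild-type replicate 2 at the left to wild-type replicate 1 at the right, steepest for alas2 (19.0 to 160.0 TPM), while gata1a peaks in wild-type replicate 3 at 42.6 TPM.

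By mean level over the 12 kidneys the order was slc4a1a (295 ± 132 TPM, SD, n = 12), tfr1a (158 ± 67.3), urod (119 ± 48.1), epb41b (99.5 ± 43.6), fech (74.0 ± 23.8), sptb (71.6 ± 29.8), alas2 (68.1 ± 41.6), slc25a37 (41.0 ± 16.99), klf1 (30.3 ± 10.1) and gata1a (25.9 ± 9.80). The ranges of all neighbours in this order overlapped, since each gene varied several-fold between kidneys. Within single kidneys the order was firmer for some neighbours: slc4a1a lay above tfr1a, epb41b above fech and slc25a37 above klf1 in 12 of 12 samples. In contrast, fech lay above sptb in 8 of 12, sptb above alas2 in 7 of 12 and klf1 above gata1a in 8 of 12, so those neighbours did not differ beyond their spread.

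The comparison of genotypes asks whether kidneys with 1 mutant copy of pdx1 held another level of these genes. A difference by genotype was detected in none of the 10. Of all 23732 genes tested, 1 passed an adjusted p of 0.05 in the edgeR quasi-likelihood test with Benjamini-Hochberg adjustment (0.00421%). In DESeq2 62 of 22788 genes passed (0.272%), and in limma-voom 1 of 23732 (0.00421%). Of the 10 genes 0 passed in edgeR, DESeq2 or limma-voom. At an unadjusted edgeR p under 0.05 the share was 5.68% of all genes and 0 of the 10. The group ranges of CPM (counts scaled to library size with TMM factors) did not overlap for 1.4% of all genes and for 0 of the 10. Fold changes over wild-type were small beside their errors. The log2 fold change was -0.32 ± 0.63 for alas2 (approximate SE), -0.10 ± 0.41 for urod and -0.01 ± 0.29 for fech. It was -0.24 ± 0.41 for tfr1a and -0.28 ± 0.39 for slc25a37. For the factors it was -0.06 ± 0.36 (gata1a) and -0.07 ± 0.35 (klf1). For the membrane genes it was -0.02 ± 0.49 (slc4a1a), -0.28 ± 0.43 (epb41b) and -0.25 ± 0.40 (sptb). The edgeR adjusted p was at least 0.999 for each of them, and an exact two-sided permutation test of log2 CPM over 220 splits gave p between 0.691 and 1.

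All 10 point estimates lay below 0, with a median of -0.17 on the log2 scale against 0.01 over all genes tested, of which 48.3% were below 0. The 10 genes varied together from kidney to kidney, so their signs are not independent. Without wild-type replicate 1, the kidney highest in 8 of the 10 genes, the median became 0.31 and only gata1a stayed below 0. Without wild-type replicate 2, the lowest kidney in 4 of them, it became -0.52. With 3 wild-type kidneys whose alas2 spanned 19.0 to 160.0 TPM, the estimate for that gene has a wide error, and the smallest difference these samples could show was not computed.

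**Figure D2:**
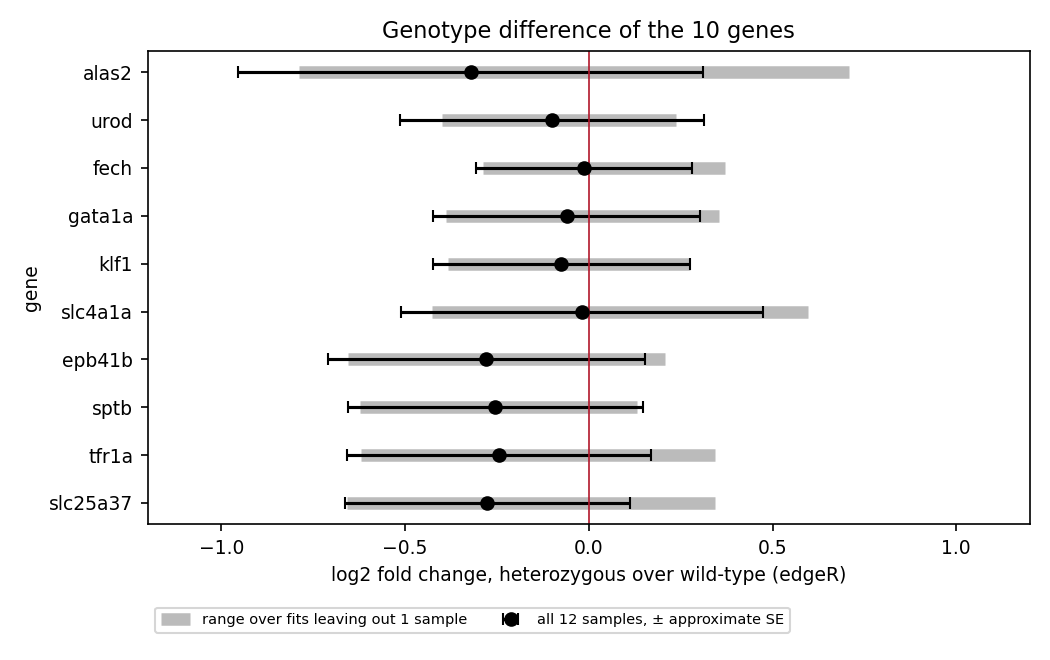
Log2 fold change of each gene, heterozygous over wild-type; points and bars show the edgeR estimate from all 12 samples ± its approximate SE, and grey bands the range over the 12 fits that leave out 1 sample. Every error bar and every band crosses 0, and the band of alas2 runs from -0.79 to 0.71.

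The main pattern in these genes was their joint variation from kidney to kidney. Over the 12 kidneys the 45 pairs among the 10 genes had a median Pearson r of 0.94 (log2 CPM), while the median over all pairs of the 23732 tested genes was 0.00. An r of at least 0.9 was found in 36 of the 45 pairs, and in 0.0384% of all gene pairs. Cells were not separated here. A kidney with fewer red cells of any stage and one with less of these RNAs per cell therefore cannot be told apart. The genes also share the same libraries.

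The 36 pairs that do not involve gata1a had r from 0.90 to 0.99. Closest by r were sptb and epb41b, the spectrin and the protein that anchors it (r = 0.99, rho = 0.98). The permutation p was 1e-05, the smallest that 100000 permutations can give, and 2.05e-05 after adjustment over the 45 pairs. The log2 ratio of sptb to epb41b had an SD of only 0.12, against SDs of 0.67 and 0.72 for the genes themselves. Their lead was narrow, with an r of 0.98 for klf1 and epb41b. By rho other pairs were closer, such as fech with slc4a1a (1) and klf1 with epb41b (0.99). The iron carriers tfr1a and slc25a37 were each other's closest partners by r (r = 0.97, rho = 0.96, permutation p = 1e-05, adjusted p = 2.05e-05). That did not hold by rho, where slc25a37 was closer to klf1 (0.99) and tfr1a to epb41b (0.97). Between the first and the last enzyme of the pathway, alas2 and fech, r was 0.96 and rho 0.97 (permutation p = 1e-05, adjusted p = 2.05e-05). For alas2, urod and fech the closest partner by r was klf1 each time, with r of 0.97, 0.97 and 0.98. The lead was small, since slc4a1a also had an r of 0.97 with alas2 and with fech. By rho, slc4a1a was closer than klf1 to alas2 (0.97 against 0.95) and to fech (1 against 0.97). For urod, sptb and klf1 had the same rho (0.94). Leaving out the 2 kidneys farthest from the median of the first gene of each pair kept r at 0.86 or above in these 36 pairs.

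By contrast, gata1a followed the others less closely, with r from 0.73 to 0.84 in its 9 pairs. Its lowest value was with alas2 (r = 0.73, rho = 0.71; permutation p = 0.00915, adjusted p = 0.00915), and without the 2 farthest kidneys that r was 0.63. The correlation with klf1, the other transcription factor, was also moderate (r = 0.80, rho = 0.79; permutation p = 0.00308, adjusted p = 0.00330). Whether the r of gata1a differs from that of the other genes was not tested. Among the 9 heterozygous kidneys alone, the r of gata1a ran from 0.74 with alas2 to 0.94 with slc25a37. It was 0.79 with klf1, 0.76 with slc4a1a and 0.90 with tfr1a. This range overlapped pairs without gata1a, such as alas2 with slc25a37 (0.87), so the lower r held only in part there. For each gene, log2 CPM was fitted on the mean of the other 9, and gata1a lay 0.56 above its line in wild-type replicate 3 and 0.47 below it in wild-type replicate 1. Among heterozygous kidneys it lay 0.46 below the line in replicate 1, 0.38 above it in replicate 8 and 0.33 above it in replicate 2. The ratio of alas2 to gata1a, in TPM, was 5.98 in wild-type replicate 1 and 1.54 in replicate 3. In heterozygous replicate 2 that ratio was 0.864, so there gata1a was the higher of the pair.

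**Figure D3:**
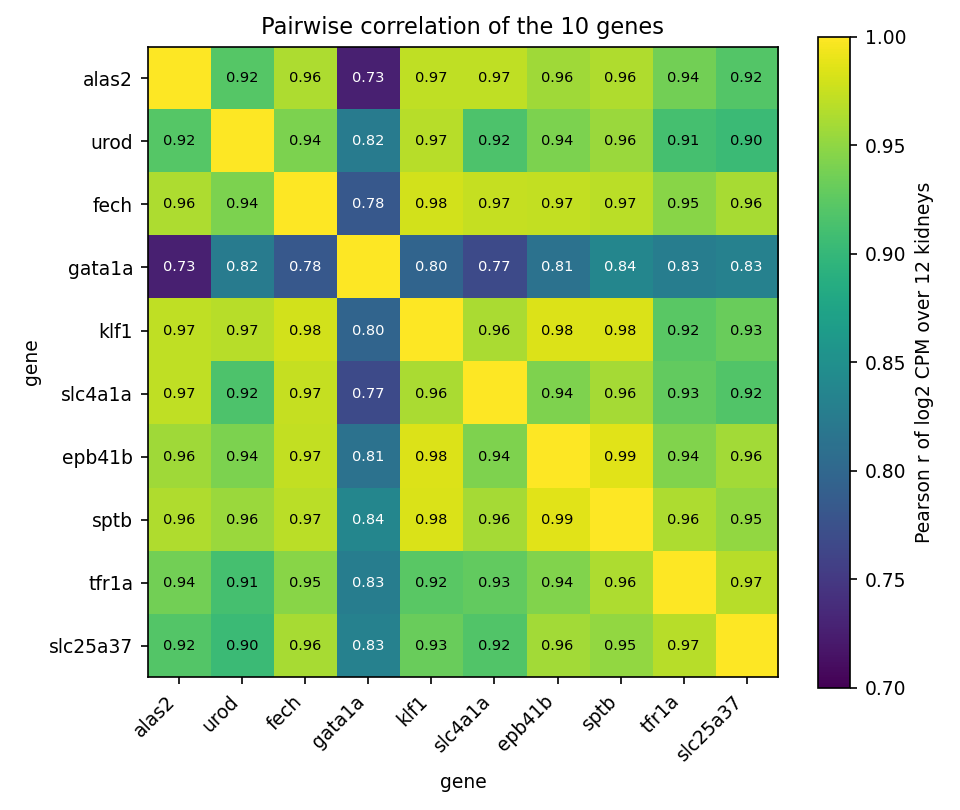
Pearson r of log2 CPM over the 12 kidneys for each pair of the 10 genes, on a colour scale from 0.7 to 1. All pairs lie at 0.90 or above except those with gata1a, which run from 0.73 to 0.84.

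The genes moved together but not by equal amounts. For each unit of change in the mean log2 CPM of the other 9 genes, alas2 changed by 1.67 units (1.58 to 1.76 when 1 kidney at a time was left out) and slc4a1a by 1.22 (1.14 to 1.27). Spectrin sptb changed 1 for 1, with a slope of 0.999 and an r of 0.99. The smaller slopes were those of fech (0.67, from 0.65 to 0.69), gata1a (0.68, from 0.61 to 0.80) and klf1 (0.83, from 0.80 to 0.85). A least-squares slope also falls with a lower r, which was 0.81 for gata1a. The SD of log2 CPM over the 12 kidneys was 0.58 for gata1a, 0.57 for klf1 and 0.47 for fech. The order of the kidneys by klf1 was the same as their order by the mean of the other 9 genes (rho = 1). In TPM, alas2 was 1.44 as high as fech in wild-type replicate 1 and 0.432 times as high in wild-type replicate 2. Some kidneys departed from the shared pattern in single genes: heterozygous replicate 7 lay 0.43 above the line in slc4a1a and 0.33 below it in tfr1a, and heterozygous replicate 3 lay 0.42 below it in urod. The TPM of slc4a1a was 2.97 times that of tfr1a in heterozygous replicate 7, and between 1.32 and 2.58 times in the other 11 kidneys.

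**Figure D4:**
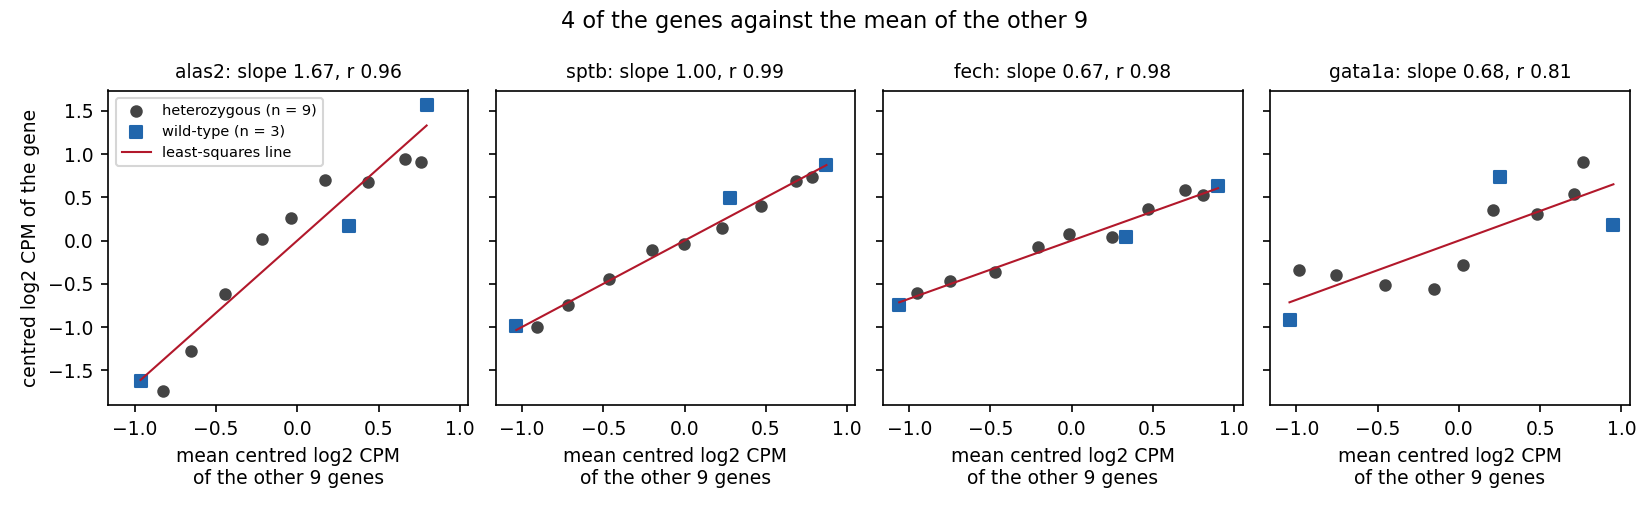
Centred log2 CPM of alas2, sptb, fech and gata1a against the mean centred log2 CPM of the other 9 genes. Each point is 1 kidney sample, squares are wild-type, and the line is the least-squares fit. The slope is 1.67 for alas2, 0.999 for sptb and 0.67 for fech, and the residual SD is 0.34 for gata1a against 0.087 for sptb.

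The spread was large within a single genotype. Among the 9 heterozygous kidneys the SD of log2 CPM was 0.98 for alas2, 0.75 for slc4a1a and between 0.43 and 0.69 for the other 8 genes, against a median of 0.33 over all genes tested. For alas2 93.1% of tested genes had a smaller SD, and for fech, the steadiest of the 10, 65.9% had. A score was formed as the mean over the 10 genes of log2 CPM centred on its mean. It ran without a wide gap from -1.03 in wild-type replicate 2, -0.92 in heterozygous replicate 2, -0.72 in replicate 3 and -0.46 in replicate 6 to 0.69 in heterozygous replicate 4, 0.78 in replicate 8 and 0.87 in wild-type replicate 1. The largest step between neighbouring kidneys was 0.27. Together the 10 genes took 0.127% to 0.545% of all counts. These libraries also split by ddc, the DOPA decarboxylase gene, into 6 kidneys with 4332 CPM or more and 6 with at most 220 CPM. The score spanned -1.03 to 0.69 in the first 6 and -0.92 to 0.87 in the second, and the median r among the 10 genes was 0.95 and 0.94 within them.

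The other heme enzyme genes varied with these genes, apart from alas1. Of the 7 other enzyme genes, 6 had r to the score of the 10 genes between 0.86 and 0.98: ppox, hmbsb, cpox, uros, alad and hmbsa. Over all tested genes the median r was -0.01, and 0.4% had an r of at least 0.9, which 4 of the 7 reached. The enzyme gene hmbsb ranged from 11.3 to 57.2 TPM (r = 0.97, rho = 0.97) and ppox, whose product makes protoporphyrin, from 17.6 to 61.7 TPM (r = 0.98, rho = 0.96). The ubiquitous first enzyme is encoded by alas1, which stayed between 44.8 and 90.1 TPM with an r of 0.08 and a rho of -0.03. Of the pair, alas2 was the higher in 6 of 12 kidneys: in wild-type replicate 2 there were 19.0 TPM of alas2 beside 48.0 of alas1, and in wild-type replicate 1 there were 160.0 beside 52.9. Between genotypes the point estimates were above 0 for 2 of the 7 enzymes and below 0 for 5 (median -0.07 on the log2 scale), and 0 passed the threshold in edgeR or DESeq2.

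Some relatives of these genes within the same families followed the score less, a comparison chosen after the values were seen. The spectrin gene sptbn1, expressed widely outside red cells, was 46.7 ± 4.43 TPM (SD, n = 12) with an r to the score of 0.01 (rho = 0.22), against 0.99 for sptb. Mitoferrin 2, slc25a28, was 14.1 ± 1.62 TPM (r = 0.36, rho = 0.38). The second protein 4.1 gene, epb41a, was 2.17 ± 0.559 TPM (r = -0.10, rho = 0.17). The second transferrin receptor gene, tfr1b, was an exception in another way. It was 2.67 to 3.89 TPM in heterozygous replicates 1, 2 and 3 and 17.6 to 33.1 TPM in the other 9 kidneys. This 12.4-fold range went only partly with the score (r = 0.60, rho = 0.64). A further transferrin receptor gene, tfr2, did follow the score (r = 0.91, rho = 0.91). The estimated counts of tfr1a were not whole numbers in any library (tolerance 0.001), as was also so for fech, klf1, sptb and slc25a37, and levels of such genes are uncertain where reads fit more than 1 gene.

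Heme handling and iron genes split between those that followed the red cell genes and those that did not. Of 23 tested genes of heme transport and breakdown 3 reached an r of 0.9: tspo, a mitochondrial outer membrane protein gene (r = 0.98, rho = 0.98), tmem14ca, which is needed for porphyrin import into mitochondria in mouse cells (r = 0.96, rho = 0.94), and the biliverdin reductase gene blvrb (r = 0.96, rho = 0.92). The median r over all 23 was 0.23, and 8 had an r below 0. The heme oxygenase gene hmox1a, which breaks heme down, had a negative r (r = -0.59, rho = -0.53). Its extremes were in wild-type samples, 51.4 TPM in replicate 1 and 118 TPM in replicate 2. These were also the kidneys with the highest and the lowest score. Heterozygous kidneys stayed between 63.8 and 90.2 TPM of hmox1a, with an SD of log2 CPM of 0.15 against a median of 0.33 over all genes tested. Of 31 tested iron and iron-sulfur cluster genes, 27 had a positive r, the median over all 31 was 0.58, and tfr2 alone reached 0.9 (r = 0.91, rho = 0.91). The ferritin gene fth1a ranged from 529 to 1495 TPM (r = 0.89, rho = 0.83), while the iron exporter gene slc40a1 had an r of 0.45 (rho = 0.35). By genotype 0 genes of either list passed. At an unadjusted edgeR p under 0.05 stood 0 of 23 genes of the heme list and 2 of 31 of the iron list, close to the 5.68% of all genes. These were aco1 and pcbp2, with log2 fold changes of -0.38 ± 0.14 and -0.29 ± 0.11 (edgeR adjusted p = 0.809 for both).

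Among regulators and membrane genes some followed the score closely. Of 25 tested regulators 4 reached an r of 0.9: the erythropoietin receptor gene epor (0.99), nfe2 (0.97), tal1 (0.95) and gfi1b (0.95), with rho of 0.97, 0.96, 0.95 and 0.92. Of the regulators known from earlier blood cells, myb had an r of 0.74 (rho = 0.77) and gata2b of 0.03 (rho = 0.06). The median r over all 25 regulators was 0.31, while 5 had an r below 0. The most opposed regulator was btg1 (r = -0.77). Of 29 tested membrane and cytosol genes 10 reached 0.9. Among them were hemgn (0.99), cahz (0.96), the adducin gene add2 (0.96), the water channel gene aqp1a.1 (0.95) and the ammonium transporter gene rhag (0.93). The median r over all 29 was 0.58, while 5 had an r below 0 and the lowest was -0.50. The carbonic anhydrase gene cahz had a 12.3-fold range, wider than that of alas2. By genotype 0 genes of these 2 lists passed the threshold in edgeR or DESeq2, and 1 of their genes, nt5c3a, had an unadjusted edgeR p under 0.05, fewer than the 5.68% of all genes.

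Adult globin genes varied with the 10 genes as well, with r to the score of 0.90 for hbaa1 (rho = 0.89) and 0.88 for hbba1 (rho = 0.78). The companion pair followed less, with 0.67 for hbaa2 (rho = 0.51) and 0.61 for hbba2 (rho = 0.53). The TPM ratio of hbaa1 to hbba1 was 1.28 to 1.53 in 8 kidneys. It was 0.570 to 0.776 in the other 4, which were heterozygous replicates 7, 8 and 9 together with wild-type replicate 2. Whether this ratio reflects RNA levels or the assignment of reads between globin copies cannot be told apart in these files. The labels do not say whether the kidneys that share this ratio, or those with little tfr1b, also share a family or batch. The tests above treat all kidneys as independent.

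The 12 genes most like the score, out of 14626 named genes with a mean of at least 2 CPM, had r from 0.97 to 0.99 and rho from 0.96 to 1 over the 12 kidneys. They were hemgn, tubb1, epor, ago2, ppox, pfkma, tspo, frrs1b, slc43a3a, nmt1b, tmem229b and hmbsb. At the top stood hemgn, the gene of the red cell nuclear protein hemogen (r = 0.99, 30.9 to 152 TPM), and the beta tubulin gene tubb1 (r = 0.99, 19.8 to 65.5 TPM). The muscle-type phosphofructokinase gene pfkma ranked the kidneys in the same order as the score (rho = 1), with a 7.32-fold range up to 29.96 TPM. The Argonaute gene ago2 had the narrowest range of the 12, at 2.21-fold (r = 0.99). Of these 12 genes 5 also stood on the lists of heme, regulator or membrane genes: hemgn, epor, ppox, tspo and hmbsb.

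Cell cycle genes and markers of other cells varied with the score to differing degrees and in both directions. Their part in the pattern was not tested. All 24 tested cell cycle genes had a positive r, with a median of 0.72, and the helicase gene mcm7 was the closest (r = 0.87, rho = 0.90). All 14 T and NK cell genes had a negative r, with a median of -0.51, and in 12 of 15 macrophage and dendritic cell genes r was negative, with a median of -0.38. Over all tested genes 50.6% had an r below 0. The lymphocyte receptor gene il2rb (r = -0.83, rho = -0.90) and the macrophage gene csf1ra (r = -0.81, rho = -0.80) were the most opposed on their lists. Summed levels of the T and NK cell list ranged from 50.1 to 109 TPM in wild-type and from 80.4 to 162 TPM in heterozygous kidneys. Between genotypes, 13 of its 14 genes had higher estimates in the heterozygous group, while 48.3% of all genes tested had lower ones. The median over the 14 was 0.68 on the log2 scale against -0.17 for the 10 red cell genes. These 14 genes may vary together, so their signs need not be independent. Of the 14, 0 passed in edgeR, 5 had an unadjusted edgeR p under 0.05 and 2 passed in DESeq2. Over all genes tested the shares were 0.00421%, 5.68% and 0.272%. An unadjusted edgeR p under 0.05 was also found for 5 of 15 proximal tubule genes and 5 of 16 endothelial genes. The same held for 4 of 15 macrophage and dendritic cell genes. Median estimates of these 3 lists were -0.054, -0.22 and 0.012 on the log2 scale. Each remaining cell list and the cell cycle list held 0 to 2 such genes. In DESeq2 1 macrophage and dendritic cell gene and 1 thrombocyte gene passed. The part of any of these cells in the genotype estimates of the 10 genes was not tested. Of the nephron lists, r was negative for 6 of 15 proximal tubule genes (median 0.03), 10 of 12 distal tubule genes (median -0.16), 4 of 12 podocyte genes (median 0.17) and 12 of 13 multiciliated cell genes (median -0.41). The median was -0.06 over 16 endothelial genes and 0.44 over 11 neutrophil genes. For 12 thrombocyte genes, 11 B cell genes and 15 stem and progenitor genes the medians were 0.09, -0.25 and 0.19.

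**Figure D5:**
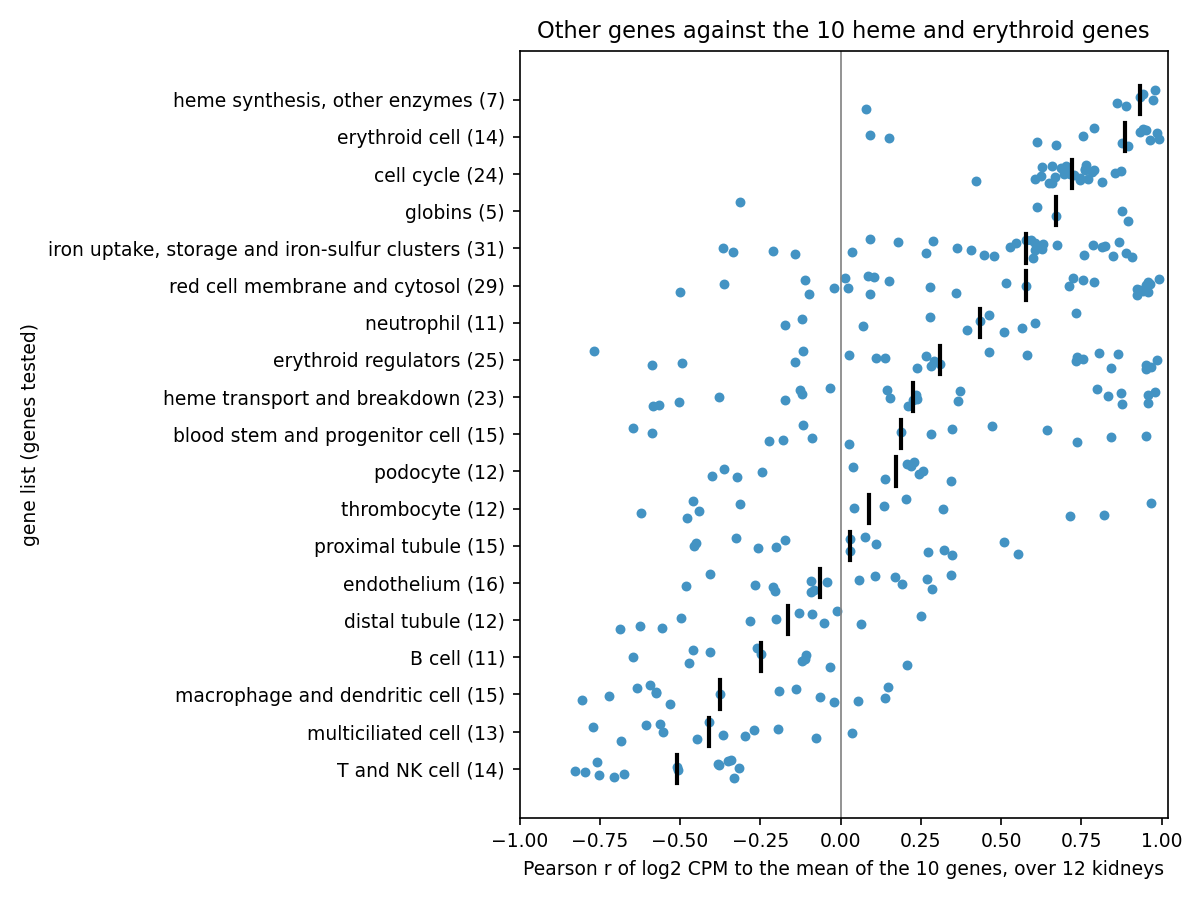
Pearson r of each listed gene to the score of the 10 genes over 12 kidneys (log2 CPM); each dot is 1 gene, black bars are medians, and the number tested is given after each list name. The other heme enzymes sit at a median of 0.93 with alas1 alone near 0, the cell cycle list lies wholly above 0 and the T and NK cell list wholly below it.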

How the data were processed

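The submitters' processing notes name Trim Galore 0.6.4, kallisto 0.4.6 and the build GRCz11; how transcripts were summed to genes, which annotation was used and whether strand was used is not given in the sources used here. Deposited by the authors were estimated counts, not normalized, and TPM values, scaled for transcript length and depth, for 30238 Entrez IDs. A RefSeq table (GRCz12tu) named 25812 of them, all 10 members included; none of its coordinates are used. Estimated counts were rounded, filtered (filterByExpr, minimum count 10, leaving 23732 genes), TMM-scaled and tested with the edgeR 4.0.16 quasi-likelihood test in R 4.3.3, all 12 samples, no covariate, Benjamini-Hochberg threshold 0.05; the fit was tested on simulated data. Approximate SE is the fold change over the square root of F. Correlations use log2 CPM (prior count 2) with 100000 permutations. Estimated counts were whole in every library for 2 of the 10 genes (tolerance 0.001). The ratio of count to TPM, which follows effective transcript length, varied by a CV of 0.0898% to 6.61% between libraries, most in fech.

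The members and the 19 lists were chosen with earlier results of these data known. Named genes are the members, genes of the lists, and the 12 genes of highest r to the member score (mean CPM at least 2, no clone-style name). Genes named from the lists were picked by r after their values were seen, and r to the score is a description with no p. Alternatives used RLE scaling, no scaling, no globin or ribosomal RNA genes, other filters, DESeq2 1.42.0, limma 3.58.1 (voom, and log2(TPM + 1) and log2(TPM + 0.1)), a surrogate variable (sva 3.50.0), the replicate block, and each sample left out. The ribosomal RNA covariate and the split by ddc were added after seeing the data.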

Additional observations from a re-analysis of the deposited data

How the results depend on the processing

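The count of the 10 genes past the threshold was 0 in each alternative run. The count over all genes was 1 in edgeR and moved to 62 with DESeq2, 3 with log2(TPM + 0.1), 3 at an adjusted p of 0.10 and 0 with the replicate block; it was 1 to 4 with 1 sample left out, with 2 without heterozygous replicate 2 and 4 without heterozygous replicate 5. Of 283 tested list genes, 0 passed in edgeR, 30 had an unadjusted p under 0.05 (10.6%, against 5.68% of all genes), 4 passed in DESeq2 (1.42%, against 0.272%; csf1rb, cd4-1, ccl36.1 and selp) and 0 to 1 with 1 sample left out (csf1rb, without heterozygous replicate 5). Directions of the 10 genes did not hold. With 1 sample left out, the log2 fold change ran from -0.79 to 0.71 for alas2, -0.40 to 0.24 for urod, -0.29 to 0.37 for fech, -0.39 to 0.36 for gata1a, -0.38 to 0.28 for klf1, -0.43 to 0.60 for slc4a1a, -0.65 to 0.21 for epb41b, -0.62 to 0.13 for sptb, -0.62 to 0.34 for tfr1a and -0.66 to 0.34 for slc25a37, and their median from -0.52 to 0.31. With 1 surrogate variable the values were 0.12 (alas2), 0.10 (urod), 0.15 (fech), 0.13 (gata1a), 0.12 (klf1), 0.31 (slc4a1a) and 0.0019 (tfr1a), with the other 3 between -0.0052 and -0.0021. With the log2 CPM of a ribosomal RNA gene as covariate they were 0.22 (urod), 0.054 (fech), 0.35 (gata1a), 0.11 (klf1) and 0.091 (slc4a1a). In that fit the other 5 stayed below 0 at -0.47 (alas2), -0.30 (tfr1a), -0.21 (slc25a37), -0.080 (epb41b) and -0.066 (sptb). The share of that ribosomal RNA gene does not overlap between the groups, so this fit cannot cleanly separate it from genotype. With limma-voom the values that turned were 0.037 (fech), 0.00067 (gata1a) and 0.12 (slc4a1a), and slc4a1a was 0.070 with log2(TPM + 1) and 0.071 with log2(TPM + 0.1). The cause was not tested. With the replicate block the median of the 10 was -0.65, from samples numbered 1 to 3 alone. Same-numbered samples had correlations of deviations of -0.22, -0.16 and 0.10. Differently numbered pairs of a wild-type and a heterozygous sample ran from -0.35 to 0.32. So few same-numbered values cannot decide whether the numbers pair the samples. The median pairwise r stayed between 0.94 and 0.96 under every scaling, prior count, sample set and left-out sample tried, and the order of mean TPM was kept with each sample left out and with CPM per effective length.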
